A study of Mus musculus with 2 samples.

Results

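A group of 70 cells with Ccr7 messenger RNA, of the kind known as mature or migratory dendritic cells, was picked out of single-cell libraries of a mouse brain tumour. A cell was a member if it held at least 1 Ccr7 UMI (a unique molecular identifier, which counts 1 captured RNA molecule), at least 2 UMIs of Cd83, Fscn1 and Traf1 together, fewer than 20 of C1qa, C1qb and C1qc together, none of Cd3d, Cd3e, Cd3g or Cd79a, and fewer than 1000 Nras CPM (counts per 1000000 counts of the cell). It also needed at least 200 genes and at most 15% mitochondrial UMIs, which 3186 of the 4970 barcodes met. The members numbered 39 of 1740 cells kept in replicate 1 and 31 of 1446 in replicate 2. With the 685 other Ptprc-positive cells (Ptprc encodes the leukocyte antigen CD45) of low Nras, they made up 10.0% in replicate 1 (95% exact binomial interval 7.23 to 13.5%) and 8.47% in replicate 2 (5.83 to 11.8%), a mean of 9.25 ± 1.10% (SD, n = 2). Ptprc itself was not asked of members, and 39 of the 70 held a Ptprc UMI.

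The libraries were made by 10x Genomics droplet sequencing from tumours that carry mutant IDH1 (mIDH1) in C57BL/6 mice at the symptomatic stage. Both belong to the same group, and no untreated brain, other tumour genotype or treatment was analysed here. The labels describe tumour cells and do not say that the libraries came from separate animals, so no p-value measures the spread between animals. Each rests only on the spread between these 2 libraries, combined with spread estimated across genes. Where 2 values are given for a class, the first is replicate 1 and the second replicate 2.

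Dendritic cells take up antigen in a tissue, and on maturation they begin to express Ccr7, the receptor that guides them along Ccl19 and Ccl21 toward draining lymph nodes. In the lymph node they show peptides on MHC molecules to T cells, together with co-stimulatory ligands and cytokines. The mature state is known in several tumours, where the same cells also express ligands that restrain T cells. NF-kB transcription factors, activated through Cd40 and related receptors, drive much of this programme.

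The members were chosen by the UMIs of these genes in each cell, so the values of the rule genes describe the choice and were not tested. Ccr7 (chr11:99144196-99155077, minus strand, GRCm38) stood at 3000.1 and 1854 CPM in the members and 32.7 and 9.95 CPM in all other Ptprc-positive cells. Fscn1, which bundles actin into dendrites, stood at 3192 and 2708 against 49.9 and 47.8 CPM, Cd83, a surface marker of maturation, at 1504 and 1077 against 118 and 112 CPM, and Traf1, a signalling adaptor of the TNF receptor family, at 2064 and 1275 against 50.5 and 40.7 CPM. Per cell, Ccr7 ran from 1 to 91 UMIs with a median of 15.5, and Cd83, Fscn1 and Traf1 together from 3 to 139 with a median of 39. Most members were thus far from the thresholds: 7 held exactly 1 Ccr7 UMI, and 5 held 6 or fewer of the trio. Just outside, 159 cells met every condition except Ccr7, of which 10 held 16 or more UMIs of the trio. A further 8 failed only by complement C1q, 7 only by Cd3 or Cd79a, 2 only by the trio, and 19 only by Nras. Genes that vary with the rule genes from cell to cell differ in part through the choice itself.

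Ccl5 and Serpinb6b were given as markers of the group together with the rule, though its thresholds do not use them. Each was found in 66 of 70 cells. The markers were chosen with earlier results of these data known, so this describes the cells and is no separate support. Of 10 further genes of mature dendritic cells, all had counts in the members. Among genes of conventional dendritic cells, Flt3, Zbtb46, Batf3 and Irf8 were present and Xcr1, Itgax and Cd209a had 0 counts. Movement of the cells was not measured, so the cells are called Ccr7+ dendritic cells here.

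Replicate 1 held 63001350 UMIs in all and replicate 2 held 58915133. The members held 522910, with a median of 5970 per cell (1183 to 54252) and 2102.5 genes. A single replicate 2 member gave 54252 of the 272922 member UMIs of that library, and so weighs on every replicate 2 member level. It held 3 UMIs of Ccr7, 4 of Fscn1 and 2 of Traf1, and none of Cd83 or Ptprc. The highest Nras count of a replicate 2 member was 45 UMIs, which made up 44.6% of all member Nras UMIs. Under the Nras limit of the rule only the member of 54252 UMIs can hold that many, as the next largest of replicate 2 held 15097 UMIs. Whether that member is a tumour cell was not tested. Between the libraries 10 barcodes were shared, 9 of them kept in both, and none was a member. Summed markers of neutrophils were 4.0 and 0 CPM in the members, of plasmacytoid dendritic cells and fibroblasts 0 in both, of B cells 8.0 and 3.66 CPM, and of microglia 36.0 and 40.3 CPM against 4707 and 4884 CPM in the other cells. Basophil markers stood at 152 and 180 CPM (others 454 and 280), macrophage markers at 300.0 and 87.9 CPM (others 39501 and 39111), and tumour markers at 48.0 and 158 CPM (others 15.3 and 25.6). These came from few cells: 4 members held 3 or more UMIs of basophil genes, 2 of tumour genes, and 2 held 10 or more of Apoe, 8 in all. Without those 8 the basophil markers were at 0 in both libraries and the macrophage markers at 49.3 and 47.5 CPM. The 8 were picked by genes of these same marker lists, so the fall follows in part from the choice. It does not show that the remaining members are free of other cells' RNA. Ccr7 stood at 3416 and 2400 CPM without the 8. Though few, those 8 include the member of 54252 UMIs and weigh on every member level. In sum the 10 further genes of mature dendritic cells stood at 7478 and 6447 CPM without them, against 6552 and 5181 CPM with them. Scrublet called 1 member a doublet.

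The members were set against 3 backgrounds. The first, called the pool, was the sum of all 685 other Ptprc-positive cells in each library (6663493 UMIs, median 8513 per cell), of which 317 C1q-high Cx3cr1-positive cells (macrophages or microglia by these genes) gave 4220535 UMIs. The second was 59 monocytes, with at least 5 UMIs of Ly6c2 and Chil3 together (29 and 30 cells, median 9134 UMIs). The monocytes of replicate 2 carried neutrophil genes, with S100a8 at 8.78 and 7386 CPM in replicates 1 and 2; its part in the differences was not tested. The third was 15 other dendritic cells, with at least 2 UMIs of Flt3, Xcr1 and Clec9a together and 5 of H2-Ab1 (4 and 11 cells), which were too few to test and are described by level only. The monocytes and other dendritic cells are also part of the pool, and the same member sums enter every comparison. Levels are CPM of the counts summed over a class, and the class mean weights log2 levels of the 5 other classes with 20 or more cells per library alike. In edgeR's quasi-likelihood test, calls needed an adjusted p (Benjamini-Hochberg) under 0.05 and a log2 fold of at least 1 in size, and "higher" and "lower" below mean called genes. Folds are log2 ± a standard error derived from the fold and the F value of the test. That error rests on the 2 libraries and on spread estimated across genes. The words "at least" mark a fold against 3 counts over the whole group, where 1 side had none. Against all other Ptprc-positive cells, 9488 genes were tested; 827 (8.72%) were higher in the Ccr7+ dendritic cells and 1321 (13.9%) lower, with a median log2 fold of -0.09. Against monocytes, 5188 were tested; 750 (14.5%) were higher and 835 (16.1%) lower, with a median of 0.01. Of 6082 genes with enough counts for the other dendritic cells, 265 (4.36%) were at least 4-fold higher in both libraries and 202 (3.32%) at least 4-fold lower. Each other setting has its own background of genes higher and lower. Over all genes these were 531 and 606 of 9488 with DESeq2 and 770 and 607 of 5190 against the class mean. With thinned cells they were 591 and 951 of 5129.

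Genes of the mature dendritic programme were higher almost throughout. The list was chosen with earlier results of these data known and includes Ccl5 and Serpinb6b, so its counts are a description. Of 25 genes listed, all had counts in the members and 24 could be tested against all other Ptprc-positive cells: 21 were higher (background 8.72%), 2 lower and 1 not called, with a median log2 fold of 4.72. Against monocytes 21 of 23 were higher (background 14.5%) and none lower, with a median of 6.33, or 4.18 with genes at 0 counts set at their bound. Against the other dendritic cells 20 of 23 were at least 4-fold higher in both libraries (background 4.36%). The first count was 22 without the 8 members that carried markers of another type (over all genes 925 of 9212). Lists share genes, and a shared gene counts in each list. Relb, Nfkb2 and Birc3 are also in the NF-kB list, and Ccl5, Ccl17 and Ccl22 are also chemokine ligands. Cd200 and Il4i1 are also among the genes that restrain T cells, and Socs2 is also in the JAK-STAT list. List counts are thus not separate results.

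Ccl22, a chemokine that attracts Ccr4-bearing T cells, stood at 572 and 278 CPM in the Ccr7+ dendritic cells and 1.59 and 1.71 CPM in the other Ptprc-positive cells (log2 fold 7.69 ± 0.31, adjusted p = 2.93e-05). Monocytes and other dendritic cells held 0 counts of it. It was at least 76.5-fold higher than in monocytes, a call that DESeq2 did not make. Cacnb3, a subunit of voltage-gated calcium channels, stood at 1072 and 1022 against 13.3 and 6.26 CPM (log2 fold 6.56 ± 0.27, adjusted p = 2.93e-05) and at 0 in monocytes and in the other dendritic cells. Nudt17, of the Nudix hydrolase family, stood at 292 and 249 against 0.953 and 1.42 CPM (log2 fold 7.52 ± 0.33, adjusted p = 3.02e-05). Bcl2l14, a member of the Bcl2 family, stood at 456 and 671 against 3.50 and 2.84 CPM (log2 fold 7.23 ± 0.27, adjusted p = 2.93e-05). In none of these genes did the libraries of the members and of the other cells overlap. Called genes were named for large folds, so here and below such a lack of overlap follows largely from that choice. It is a description and no further support, and its share over all genes is not given.

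Socs2, a feedback inhibitor of cytokine receptor signalling, stood at 704 and 707 CPM in the members and was among the genes with 0 counts in monocytes (at least 129-fold higher, adjusted p = 1.55e-05). Apol7c, an apolipoprotein L gene, had no count in any of the other 685 cells and stood at 128 and 73.3 CPM in the members (at least 221-fold higher, adjusted p = 0.00033, not called by DESeq2), from 14 cells, 1 of which held 30.8% of its counts. Serpinb6b, an inhibitor of serine proteases, stood at 1196 and 1147 against 21 and 12.2 CPM. The Rab GTPase regulator Tbc1d4 stood at 1180.1 and 1041 against 30.5 and 22.8 CPM (outside the naming rule; chosen after its values were seen). Both member libraries lay close together and above the pool for each.

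Of the genes that broke the pattern, Cst7, which encodes an inhibitor of lysosomal proteases, stood at 0 and 3.66 CPM in the members, from 1 cell, against 276 and 273 CPM (log2 fold -7.32 ± 0.49, adjusted p = 0.00011). Cd63, a tetraspanin of late endosomes, stood at 812 and 916 against 1602 and 1536 CPM (log2 fold -1.08 ± 0.14, adjusted p = 0.00185). Its direction depended on the background: the log2 fold was 1.70 against the mean of the class levels and 3.92 against monocytes, where it stood at 4.39 and 103 CPM. Anxa3, an annexin, stood at 828 and 663 against 324 and 357 CPM and missed the size of fold asked (log2 fold 0.91 ± 0.17, adjusted p = 0.00872).

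**Figure D1:**
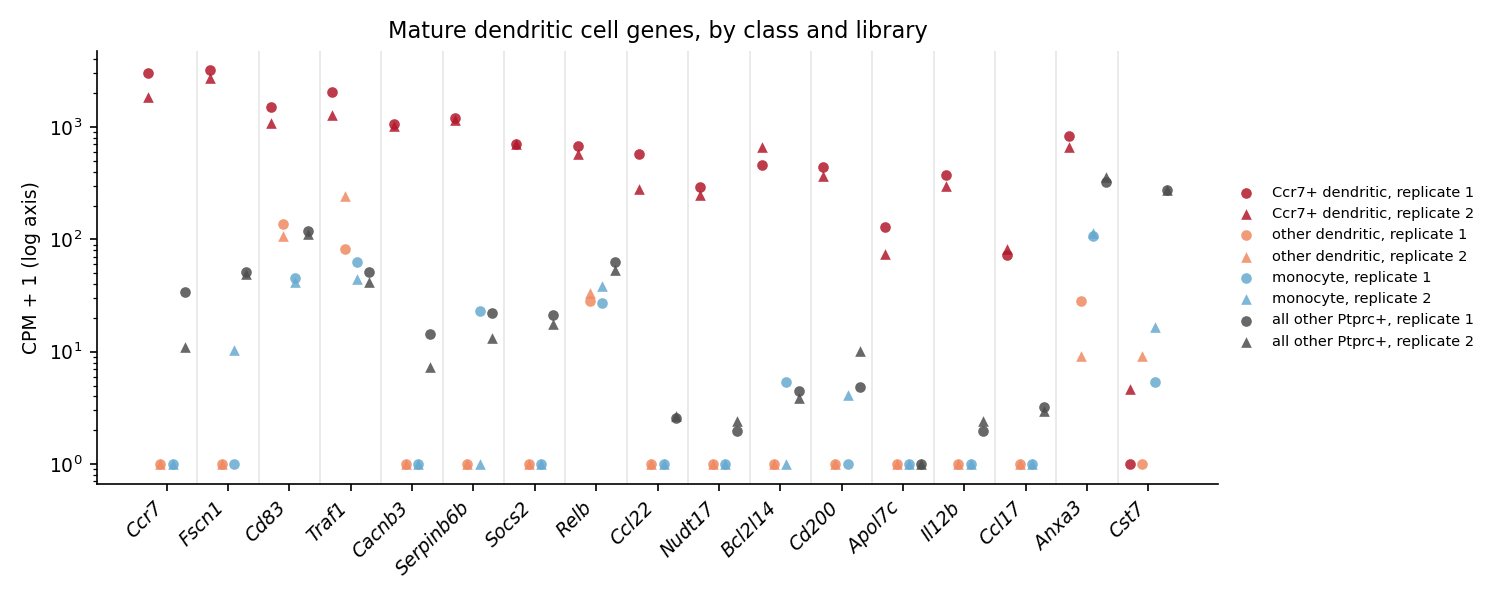
Level of 17 rule or mature dendritic genes in 4 classes of cell, as CPM + 1 on a log axis; circles are replicate 1 and triangles replicate 2, and a point at 1 means 0 counts. The red points of the Ccr7+ dendritic cells lie above all others for every gene except Cst7.

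The NF-kB pathway, which carries signals from Cd40 and TNF family receptors to the nucleus, was among the lists with the most genes higher. Of 28 genes tested, 15 were higher than in all other Ptprc-positive cells, 1 lower and 12 not called (background 8.72% higher and 13.9% lower), with a median log2 fold of 1.14. Against monocytes 12 of 25 were higher and 1 lower (background 14.5% and 16.1%, median 1.15). Against the other dendritic cells 6 of 27 were at least 4-fold higher in both libraries (background 4.36%). DESeq2 called 10 higher and none lower in the first comparison (over all genes 531 and 606 of 9488).

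Of the transcription factors, Relb, the partner of p52 in the non-canonical pathway, stood at 676 and 572 CPM in the members, 62 and 52.9 in the other Ptprc-positive cells, 26.3 and 37.5 in monocytes and 27.1 and 32.6 in the other dendritic cells (log2 fold 3.23 ± 0.16, adjusted p = 4.3e-05 in the first comparison). Nfkb1 and Rela belong to the canonical pathway. Nfkb1 stood at 288 and 319 against 128 and 148 CPM and Rela at 128 and 66 against 49.9 and 45.2 CPM, and neither was called (adjusted p = 0.00811 and 0.0987). Among the kinases, Map3k14, the NF-kB-inducing kinase of the non-canonical pathway, stood at 468 and 436 against 32.1 and 30.1 CPM (log2 fold 3.64 ± 0.18, adjusted p = 4.3e-05). The ubiquitin ligase Birc2, a brake on that kinase, stood at 684 and 513 against 44.2 and 39.5 CPM (log2 fold 3.61 ± 0.18, adjusted p = 4e-05). Kinase and brake were thus both higher, each with both member libraries above both of the others. Tnip3, which binds the deubiquitinase A20, stood at 332 and 242 against 8.90 and 9.10 CPM (log2 fold 4.75 ± 0.26, adjusted p = 4.67e-05). Ikbke, a kinase of the interferon-inducing branch, was the gene that was lower, at 4.0 and 0 against 29.5 and 35.3 CPM (log2 fold -4.24 ± 0.84, adjusted p = 0.0112, not called by DESeq2).

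Promoters of this list were searched for the kappaB consensus, the 10-base site that NF-kB dimers are known to bind, on both strands, in RefSeq windows from 250 bases before to 50 after a gene's start (GRCm38.p6). The consensus lay in 2779 of 32851 windows (8.46%). Counted by gene, at least 1 window held it for 2581 of 27025 genes (9.55%), for 10 of the 24 NF-kB genes with a window (41.7%) and for 1 of the 19 matched genes of the mature programme (5.26%), Nfkb2. A match describes letters in a window, not a bound site, and a window without one says nothing of the factor. Shown are the 5 that had a match and were higher than in all other Ptprc-positive cells, chosen after their values were seen. They are Nfkb2 at chr19:46304487-46304786 (plus strand), Rel at chr11:23770920-23771219 (minus), Nfkbia at chr12:55492598-55492897 (minus), Nfkbie at chr17:45555450-45555749 (plus) and Tnip3 at chr6:65590148-65590447 (plus). Each runs 5′ to 3′ along its gene, and capitals mark matches on either strand; overlapping matches merge into 1 run.
Nfkb2: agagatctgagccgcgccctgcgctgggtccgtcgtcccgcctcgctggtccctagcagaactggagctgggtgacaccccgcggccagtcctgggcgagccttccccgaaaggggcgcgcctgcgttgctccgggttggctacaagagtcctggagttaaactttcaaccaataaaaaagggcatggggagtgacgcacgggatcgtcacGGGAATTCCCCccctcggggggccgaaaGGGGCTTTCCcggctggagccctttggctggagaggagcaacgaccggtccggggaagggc
Rel: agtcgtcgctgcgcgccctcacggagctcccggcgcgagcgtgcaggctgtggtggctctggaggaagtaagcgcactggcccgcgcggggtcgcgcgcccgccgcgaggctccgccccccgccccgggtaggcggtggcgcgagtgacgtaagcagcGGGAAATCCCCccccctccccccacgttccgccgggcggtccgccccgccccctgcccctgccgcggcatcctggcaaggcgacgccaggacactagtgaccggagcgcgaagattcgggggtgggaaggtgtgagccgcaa
Nfkbia: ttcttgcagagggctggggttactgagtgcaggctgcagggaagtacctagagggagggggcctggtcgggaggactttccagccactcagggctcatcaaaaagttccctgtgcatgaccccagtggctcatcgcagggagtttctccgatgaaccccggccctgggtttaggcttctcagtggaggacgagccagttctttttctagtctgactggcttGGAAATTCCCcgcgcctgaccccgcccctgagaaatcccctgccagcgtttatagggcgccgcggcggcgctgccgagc
Nfkbie: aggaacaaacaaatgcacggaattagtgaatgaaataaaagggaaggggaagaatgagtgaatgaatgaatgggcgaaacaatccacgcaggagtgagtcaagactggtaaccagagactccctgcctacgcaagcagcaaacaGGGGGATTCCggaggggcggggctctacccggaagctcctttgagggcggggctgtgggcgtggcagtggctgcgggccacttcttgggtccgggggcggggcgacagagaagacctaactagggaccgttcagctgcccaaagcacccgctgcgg
Tnip3: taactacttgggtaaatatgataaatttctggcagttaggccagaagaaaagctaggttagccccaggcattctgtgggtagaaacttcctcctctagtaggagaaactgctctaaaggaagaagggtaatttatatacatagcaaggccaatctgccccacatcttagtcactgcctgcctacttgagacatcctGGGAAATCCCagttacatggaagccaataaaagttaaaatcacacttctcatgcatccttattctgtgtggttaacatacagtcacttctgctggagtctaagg
Nfkb2, the precursor of p52, held 3 matches in this window and stood at 276 and 271 CPM against 47.3 and 39 CPM (log2 fold 2.46 ± 0.20, adjusted p = 0.000257). Rel, which encodes c-Rel, held 2 overlapping matches and stood at 572 and 568 against 57.2 and 54 CPM (log2 fold 3.14 ± 0.17, adjusted p = 4.67e-05). Nfkbia and Nfkbie, inhibitors that hold NF-kB in the cytoplasm, held 1 match each and stood at 1008 and 656 against 349.8 and 353 CPM (log2 fold 1.002 ± 0.19, adjusted p = 0.00924, not called by DESeq2 or against the class mean) and 180.0 and 139 against 40.4 and 44.7 CPM (log2 fold 1.69 ± 0.25, adjusted p = 0.00311). Nfkbia sat at the size of fold asked and lost its call with DESeq2 and with cells thinned to 2000 UMIs, among other settings. The 5 genes shown were chosen for a match and a higher level, and include both factor and inhibitor genes. Bcl3, Traf3, Tnfaip3, Tnip1 and Nfkbid held a match too and were not called (adjusted p from 0.0971 to 0.534). Whether a match went with a call was not tested.

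**Figure D2:**
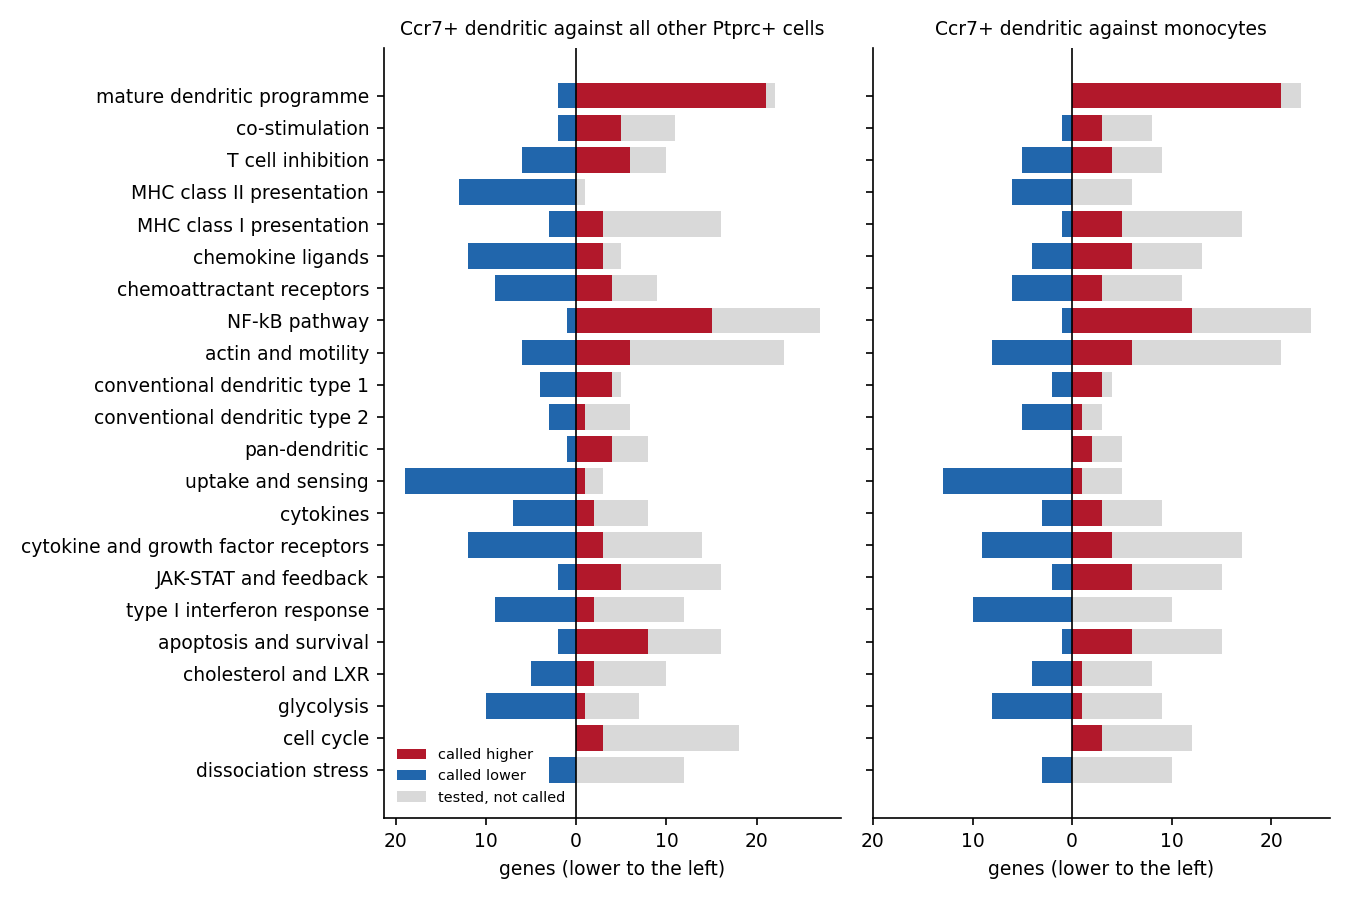
Number of genes of each of 22 lists that were higher (red), lower (blue, drawn to the left) or tested and not called (grey) in Ccr7+ dendritic cells against all other Ptprc-positive cells (left panel) and against monocytes (right panel). The mature programme (21 and 21 higher) and the NF-kB pathway (15 and 12 higher) lie to the right, and MHC class II (13 and 6 lower) and uptake and sensing (19 and 13 lower) to the left.

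MHC class II genes, which present taken-up peptides to CD4 T cells, were lower than in the pool of other immune cells. Of 15 listed, 14 could be tested: 13 were lower (background 13.9%), none higher and 1 not called, with a median log2 fold of -3.69, or -3.50 with genes at 0 counts set at their bound. Against monocytes 6 of 12 were lower (background 16.1%) and 6 not called. The other dendritic cells were chosen in part for at least 5 UMIs of H2-Ab1, a gene of this list, so their class II levels follow in part from that choice and only describe them. Against them 8 of 12 were at least 4-fold lower in both libraries (background 3.32%), and summed over the list the members held 5344 and 4624 CPM where the other dendritic cells held 35101 and 46418 CPM.

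Among the peptide-binding chains and their chaperone, Cd74, the invariant chain, stood at 2908 and 2609 CPM in the members, 5980.1 and 4889 in the other Ptprc-positive cells and 17157 and 22273 in the other dendritic cells (log2 fold -1.19 ± 0.12, adjusted p = 0.000577 against the pool). H2-Aa, an alpha chain, stood at 604 and 498 CPM in the members, against 1371 and 1056 in the pool and 4886 and 6795 in the other dendritic cells (log2 fold -1.35 ± 0.14, adjusted p = 0.000753). H2-Eb1, a beta chain, stood at 480.0 and 326 CPM, against 1151 and 837 in the pool and 3393 and 4704 in the other dendritic cells (log2 fold -1.52 ± 0.15, adjusted p = 0.000545). All 3 were below the pool in both libraries. The direction turned with the background: against the mean of the class levels, in which T cells and basophils count as much as macrophages, the log2 folds were 1.60 for Cd74, 1.45 for H2-Aa and 1.64 for H2-Eb1. There 2 genes of the list were higher and 2 lower of 12, near the shares over all genes (770 and 607 of 5190). With cells thinned to 2000 UMIs none of the 3 was called, and Cd74 was also not called without the 8 mixed members. Against monocytes none of the 3 was called; there the libraries were uneven, with Cd74 at 4121 and 543 CPM.

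Cells differed in these genes. A Cd74 UMI was seen in 67 of 70 cells (95.7%, 88 to 99.1%), an H2-Aa UMI in 34 of 70 cells (48.6%, 36.4 to 60.8%) and an H2-Ab1 UMI in 16 of 70 cells (22.9%, 13.7 to 34.4%), where all 15 other dendritic cells held each. Those cells had been chosen for at least 5 UMIs of H2-Ab1, which fixed that count for H2-Ab1. In T cells, which should lack them, the counts were 6 of 68 cells, 1 of 68 cells and 3 of 68 cells at a median of 4809 UMIs. H2-Ab1 (chr17:34257689-34269419, plus strand) stood at 252 and 80.6 CPM, uneven between the libraries (outside the naming rule; chosen after its values were seen). With every cell thinned to 2000 UMIs, H2-Ab1 was seen in 7 of 68 (10.3%) of the members and 1 of 67 (1.49%) of the T cells. These exact intervals cover counting error only.

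Genes that control loading and turnover were lower than in the pool. H2-DMa and H2-DMb1, which exchange peptides on class II, stood at 52 and 18.3 against 485 and 453 CPM (log2 fold -3.98 ± 0.31, adjusted p = 0.000212) and 32 and 14.7 against 295 and 255 CPM (log2 fold -3.79 ± 0.30, adjusted p = 0.000225). Both were also lower than in monocytes (log2 fold -4.16 and -3.64). Ciita, the master activator of class II transcription, had 1 count in the 70 members, at 4.0 and 0 CPM against 46.1 and 31.9 CPM (log2 fold -4.50 ± 0.77, adjusted p = 0.00614, not called against the class mean), and a UMI in 11 of 15 cells of the other dendritic class. March1, a ligase that removes class II from the surface, had no count in the members and stood at 97.2 and 85.9 CPM in the others (at least 15.9-fold lower, adjusted p = 0.00116, not called by DESeq2 or against the class mean).

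MHC class I presentation, which shows peptides to CD8 T cells, had genes called in both directions. Of 19 tested, 3 were higher and 3 lower than in the pool (background 8.72% and 13.9%, median log2 fold 0.19), and 5 of 18 were higher and 1 lower than in monocytes (background 14.5% and 16.1%, median 0.73). With cells thinned to 2000 UMIs, or without the 8 mixed members, 6 were higher and 3 lower. Over all genes these settings gave 591 and 951 of 5129, and 925 and 1618 of 9212. Psme1 and Psme2, the activator cap of the proteasome, stood at 1688 and 1557 against 683 and 649 CPM (log2 fold 1.07 ± 0.13, adjusted p = 0.00148) and 1756 and 1579 against 449 and 449.6 CPM (log2 fold 1.68 ± 0.14, adjusted p = 0.00029). H2-K1, a classical heavy chain, stood at 6268 and 5126 CPM in the members, 4218 and 4001 in the pool and 1249 and 1221 in the other dendritic cells. It was called against monocytes (log2 fold 1.66 ± 0.19, adjusted p = 5.11e-05) and not against the pool (adjusted p = 0.178). B2m, the light chain, stood at 3784 and 3928 against 3464 and 3497 CPM and was not called (adjusted p = 0.73). Calr, a chaperone of class I assembly, stood at 132 and 114 against 539.8 and 525 CPM (log2 fold -2.33 ± 0.18, adjusted p = 0.000222). H2-Q7 was called higher too, but its reads are shared with near-identical H2-Q genes and its value is uncertain.

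**Figure D3:**
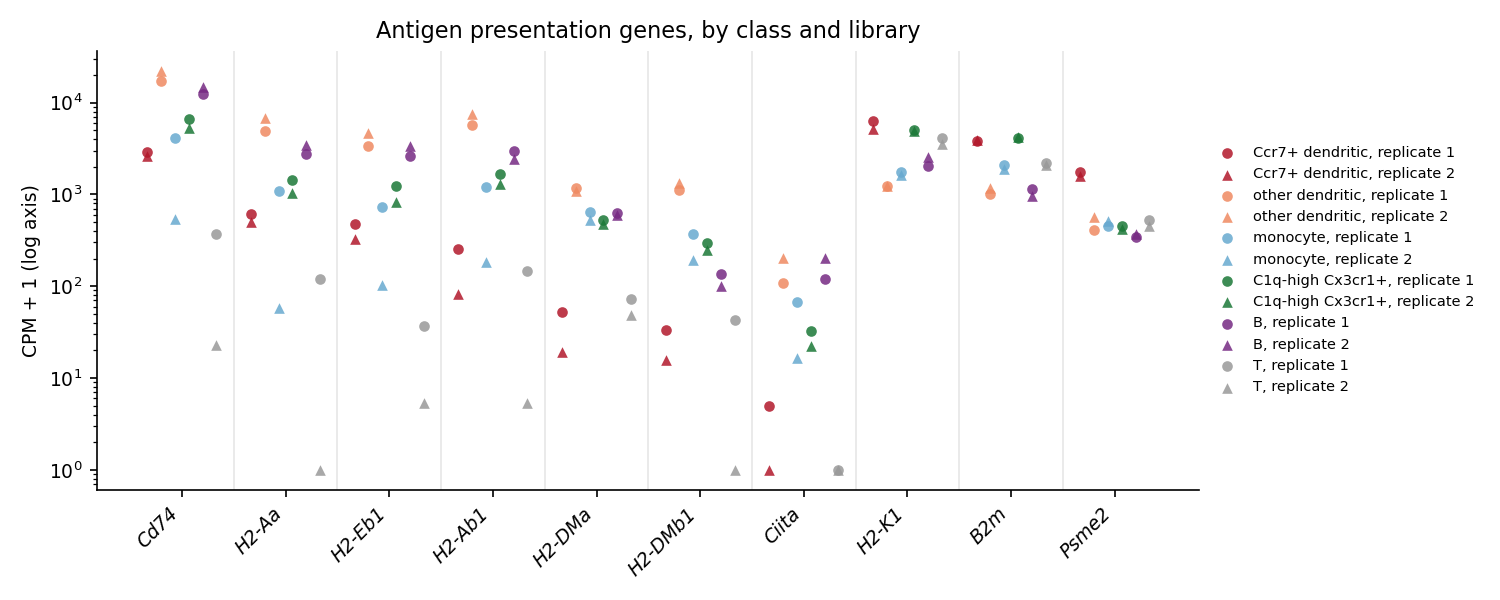
Level of 10 antigen presentation genes in 6 classes of cell, as CPM + 1 on a log axis, with circles for replicate 1 and triangles for replicate 2. For the class II genes the Ccr7+ dendritic cells (red) lie below the other dendritic cells, which were chosen in part for H2-Ab1, and the B cells, and for H2-K1 and Psme2 they lie above both.

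Among co-stimulatory ligands, 5 of 13 tested were higher than in the pool, 2 lower and 6 not called (background 8.72% and 13.9%, median log2 fold 0.76), and 3 of 9 were higher and 1 lower than in monocytes (background 14.5% and 16.1%). The share that was lower was near the background. Cd80, the B7 ligand of Cd28, stood at 300.0 and 176 CPM in the members and 9.21 and 13.4 in the pool (log2 fold 4.14 ± 0.35, adjusted p = 0.000301), and its UMIs were seen in 44 of 70 cells (62.9%, 50.5 to 74.1%) against 3 of 68 cells of the T class. Cd86, the other B7 ligand, stood at 192 and 158 against 216 and 189 CPM and was not called (adjusted p = 0.138). Cd40, the receptor for T cell help, stood at 212 and 125 against 36.5 and 34.7 CPM (log2 fold 1.997 ± 0.27, adjusted p = 0.00207). Of the pair of B7 genes, Cd80 was thus called higher, while Cd86 lay below the pool in both libraries by less than the size asked. Without the members that carried markers of another type, Cd86 stood at 227 and 216 CPM, above the pool in both libraries. The direction of Cd86 thus depended on those members. Cd80 stayed above the pool without them, at 355 and 216 CPM.

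Of the TNF family ligands, Tnfsf4, which encodes OX40 ligand, was at 0 in all other cells and at 36 and 55 CPM in the members (at least 102-fold higher, adjusted p = 0.000957, not called by DESeq2). Cd70, the ligand of Cd27, stood at 40 and 44 against 0.318 and 0.284 CPM (log2 fold 6.62 ± 0.65, adjusted p = 0.000553). Each came from 14 of the 70 cells. Slamf1, a self-ligand of activated leukocytes, stood at 52 and 44 against 5.72 and 9.39 CPM (log2 fold 2.45 ± 0.46, adjusted p = 0.00856). Cd48, a ligand of the Slam family, was lower, at 100 and 98.9 against 246 and 224 CPM (log2 fold -1.45 ± 0.20, adjusted p = 0.00242). So was Ltb, a lymphotoxin chain, at 8.0 and 22 against 119 and 111 CPM (log2 fold -3.12 ± 0.40, adjusted p = 0.0017; 4.93 and 5.28 CPM without the 8 mixed members). In the 39 members with a Ptprc UMI alone, 3 of 11 genes were higher and 2 lower (over all genes 789 and 1353 of 9287).

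Genes that restrain T cells were split, with 6 of 16 tested higher than in the pool and 6 lower (background 8.72% and 13.9%, median log2 fold -1.36, or -0.48 with genes at 0 counts set at their bound). Against monocytes 4 of 14 were higher and 5 lower (background 14.5% and 16.1%). Cd274, which encodes PD-L1, stood at 356 and 300.5 CPM in the members, 125 and 115 in the pool and 39.5 and 37.5 in monocytes (log2 fold 1.23 ± 0.17, adjusted p = 0.00247 against the pool), with UMIs in 58 of 70 cells (82.9%, 72 to 90.8%) against 12 of 68 cells of the T class. Pdcd1lg2, which encodes PD-L2, stood at 176 and 194 against 14.3 and 10.5 CPM (log2 fold 3.69 ± 0.27, adjusted p = 0.000167). Cd200, a ligand that quiets myeloid cells, stood at 444 and 363 against 3.81 and 9.10 CPM (log2 fold 5.72 ± 0.35, adjusted p = 7.48e-05). Il4i1, an enzyme that oxidises aromatic amino acids, stood at 448 and 242 against 10.2 and 14.8 CPM (log2 fold 4.51 ± 0.35, adjusted p = 0.000212), and was seen in 55 of 70 cells against 0 of 68 cells of the T class. Fas, a death receptor, stood at 92 and 69.6 against 12.1 and 22.2 CPM (log2 fold 2.04 ± 0.40, adjusted p = 0.0107). Fas acts on the cell that bears it, unlike the ligands listed with it. Genes that were lower included Havcr2 (Tim-3), at 0 counts against 48.3 and 57.7 CPM (at least 9.29-fold lower, adjusted p = 0.00304, not called by DESeq2). Vsir (VISTA) stood at 16 and 11 against 215 and 229.8 CPM (log2 fold -4.26 ± 0.32, adjusted p = 0.000191) and Arg1 (arginase) at 0 and 3.66 against 167 and 194 CPM (log2 fold -6.72 ± 0.53, adjusted p = 0.000233, not called against the class mean).

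**Figure D4:**
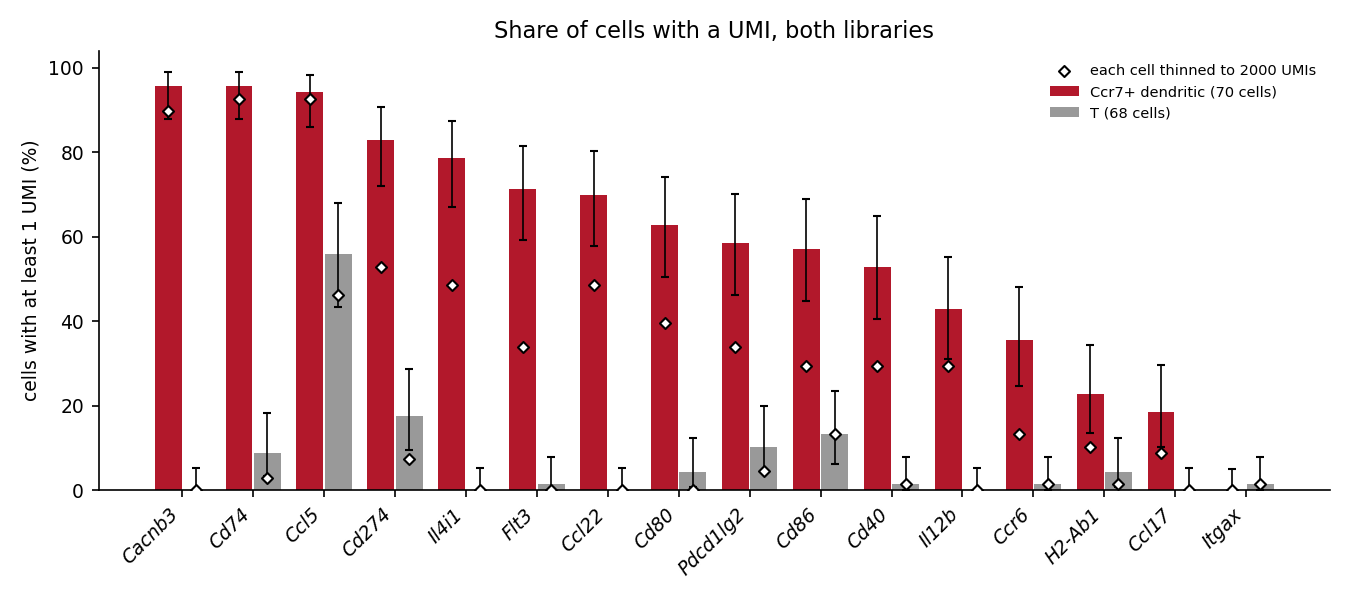
Share of cells with at least 1 UMI of 16 genes, in 70 Ccr7+ dendritic cells (red) and 68 T cells (grey), with 95% exact binomial intervals; diamonds are the shares with every cell thinned to 2000 UMIs. Ccl22, Il12b, Il4i1 and Cacnb3 are at 0 in the T cells, Cd74 is near 100% and H2-Ab1 is 22.9% in the members, and Itgax is at 0 of 70.

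Of 17 chemokine ligands tested, 3 were higher than in the pool, 12 lower and 2 not called (background 8.72% and 13.9%, median log2 fold -4.43, or -2.91 with genes at 0 counts set at their bound). The 3 were Ccl5, Ccl22 and Ccl17, which are also in the mature programme. Against monocytes 6 of 17 were higher and 4 lower (background 14.5% and 16.1%). Against the mean of the class levels 4 were higher and 2 lower (over all genes 770 and 607 of 5190). Ccl5, which attracts T cells and NK cells, stood at 7272 and 6306 CPM in the members, 1684 and 1573 in the pool, 1009 and 868 in monocytes and 0 and 65.1 in the other dendritic cells (log2 fold 1.84 ± 0.12, adjusted p = 9.64e-05 against the pool). T cells, which also make Ccl5, held 5819 and 5458 CPM. Ccl22 was seen in 49 of 70 cells (70%, 57.9 to 80.4%), and in 33 of 68 (48.5%) after thinning to 2000 UMIs. Ccl17, its partner at Ccr4, stood at 72 and 80.6 against 2.22 and 1.99 CPM (log2 fold 4.92 ± 0.45, adjusted p = 0.000403) and was seen in 13 of 70 cells (18.6%, 10.3 to 29.7%), with 47.5% of its counts in 1 cell. Neither ligand had a count in T cells, monocytes or other dendritic cells. Cxcl16, the ligand of Cxcr6, stood at 952 and 718 against 409 and 381 CPM, under the size asked against the pool (log2 fold 0.86 ± 0.15, adjusted p = 0.00757) and called against monocytes (log2 fold 2.05 ± 0.29, adjusted p = 0.000346).

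The ligands that were lower included Ccl7 and Ccl8, which attract monocytes and had no count in the members. Ccl7 stood at 192 and 120.3 CPM in the pool (at least 26.9-fold lower, adjusted p = 0.000479, not called by DESeq2 or against the class mean) and Ccl8 at 146 and 72 CPM (at least 18.7-fold lower, adjusted p = 0.000898, not called by DESeq2 or against the class mean). Cxcl9, an interferon-induced ligand of Cxcr3, stood at 8.0 and 3.66 CPM in the members and 869 and 2756 CPM in monocytes (log2 fold -8.30 ± 1.16, adjusted p = 0.000288). Cxcl10, of the same kind, stood at 12 and 18.3 against 1519 and 1305 CPM (log2 fold -6.65 ± 1.30, adjusted p = 0.00205). For each of the 4, both member libraries lay below both compared ones. Ccl3, an inflammatory ligand, stood at 180.0 and 399 CPM, from 4 cells, and at 0 without the 8 mixed members. Its log2 fold against monocytes went from 4.42 to -5.62.

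Receptors for chemoattractants other than Ccr7 were lower in 9 of 18 tested genes, higher in 4 and not called in 5 (background 8.72% higher and 13.9% lower, median log2 fold -2.25, or -1.37 with genes at 0 counts set at their bound), and against monocytes 3 of 17 were higher and 6 lower (background 14.5% and 16.1%). DESeq2 called 2 higher and 4 lower in the first (over all genes 531 and 606 of 9488). Ccr2, which draws monocytes out of the blood, stood at 60 and 3.66 CPM, from 2 cells, 1 of which held 93.8% of its counts, against 1225 and 1074 CPM in monocytes (log2 fold -5.32 ± 0.62, adjusted p = 6.24e-05; 0 and 5.28 CPM without the 8 mixed members). Cx3cr1, the fractalkine receptor, had 1 count in the members (4.0 and 0 against 835 and 899.8 CPM, log2 fold -8.98 ± 0.42, adjusted p = 3.35e-05). In replicate 2 both had at most 1 count in the members. Ccr6, the receptor of Ccl20, stood at 80 and 44 against 2.86 and 3.13 CPM (log2 fold 4.09 ± 0.49, adjusted p = 0.00131) with UMIs in 25 of 70 cells (35.7%, 24.6 to 48.1%) against 1 of 68 cells of the T class. Cxcr5, the receptor of Cxcl13, stood at 24 and 14.7 against 0.953 and 1.99 CPM (log2 fold 3.41 ± 0.74, adjusted p = 0.0158, not called by DESeq2). Ptger4, a prostaglandin E2 receptor, stood at 196 and 128 against 34.3 and 33.6 CPM (log2 fold 2.02 ± 0.26, adjusted p = 0.00166). Ccrl2, an atypical receptor that presents chemerin, stood at 88 and 109.9 against 41.6 and 42.1 CPM (log2 fold 1.03 ± 0.25, adjusted p = 0.0259, not called by DESeq2).

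Cytokine genes were lower than in the pool in 7 of 15 tested and higher in 2 (background 13.9% and 8.72%, median log2 fold -1.28, or -1.10 with genes at 0 counts set at their bound), and 3 of 12 were higher and 3 lower than in monocytes (background 14.5% and 16.1%). Il12b, which encodes the p40 chain of interleukin-12 and interleukin-23, stood at 372 and 300.5 CPM in the members and 0.953 and 1.42 in the pool (log2 fold 7.83 ± 0.32, adjusted p = 2.93e-05), and at 0 in monocytes and other dendritic cells. Its UMIs were in 30 of 70 cells (42.9%, 31.1 to 55.3%), in 20 of 68 (29.4%) after thinning, and in 0 of 68 cells of the T class. Il15, which sustains CD8 T cells and NK cells, stood at 120.0 and 58.6 against 22.6 and 21.6 CPM (log2 fold 1.76 ± 0.35, adjusted p = 0.0106, not called by DESeq2). Il1b, an inflammatory cytokine, was lower, at 304 and 161 against 477 and 472 CPM, and uneven between the libraries (log2 fold -1.28 ± 0.24, adjusted p = 0.00837, not called against the class mean). Il18 and Il1a, of the same family, had no count in the members. Il18 stood at 53.1 and 50.3 CPM in the pool (at least 9.0-fold lower, adjusted p = 0.00321) and Il1a at 60.4 and 61.7 CPM (at least 10.6-fold lower, adjusted p = 0.00238, not called against the class mean).

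Receptors of cytokines and growth factors were higher in 3 of 26 genes, a share near the background of 8.72%, and lower in 12 (background 13.9%, median log2 fold -1.22). Against monocytes 4 were higher and 9 lower (background 14.5% and 16.1%). Against the mean of the class levels 7 were higher and 6 lower (over all genes 770 and 607 of 5190). Il15ra, which presents Il15 to neighbouring cells, stood at 316 and 407 against 45.4 and 34.7 CPM (log2 fold 2.97 ± 0.24, adjusted p = 0.000234), so ligand and presenting chain were both higher. Il7r stood at 288 and 216 CPM in the members and 51.2 and 41 in the pool (log2 fold 2.23 ± 0.20, adjusted p = 0.00035), and at 0 in monocytes. Il21r stood at 284 and 179.5 against 85.8 and 99.5 CPM (log2 fold 1.09 ± 0.25, adjusted p = 0.0206, not called by DESeq2). Csf1r, the receptor that macrophages depend on, stood at 12 and 0 CPM, from 1 cell, against 919.5 and 956 CPM (log2 fold -7.54 ± 0.44, adjusted p = 6.33e-05). Csf3r, the receptor of G-CSF, which the series title names, had 1 count in the members, 4.0 and 0 against 134 and 126 CPM (log2 fold -6.24 ± 0.59, adjusted p = 0.000464, not called against the class mean). Csf2rb and Csf2ra form the GM-CSF receptor. Csf2rb stood at 468 and 377 against 281 and 262 CPM and Csf2ra at 180.0 and 150.2 against 233 and 222 CPM, and neither was called (adjusted p = 0.101 and 0.0368). Of the 3 colony-stimulating factor receptors, the members thus carried counts of the GM-CSF receptor in most cells (Csf2rb in 56 of 70) and of the others in 1 cell each.

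Downstream, 5 of 18 JAK-STAT genes were higher and 2 lower (background 8.72% and 13.9%, median log2 fold 0.53), and 6 of 17 were higher and 2 lower than in monocytes (background 14.5% and 16.1%). Stat4, which carries interleukin-12 signals, stood at 540.0 and 476 CPM in the members, 18.7 and 21.9 in the pool and 17.6 and 0 in monocytes (log2 fold 4.42 ± 0.21, adjusted p = 3.35e-05 against the pool). Jak2 stood at 284 and 242 against 44.8 and 44.1 CPM (log2 fold 2.35 ± 0.20, adjusted p = 0.000301) and Stat3 at 556 and 502 against 126 and 120.3 CPM (log2 fold 1.89 ± 0.16, adjusted p = 0.000295). Member libraries lay above the pool for each. Among the feedback inhibitors Socs2 was higher and Socs3 lower, at 68 and 18.3 against 354 and 377 CPM (log2 fold -3.33 ± 0.38, adjusted p = 0.000972; 24.6 and 10.6 CPM without the 8 mixed members). Socs1 stood at 316 and 293 against 171 and 174 CPM and missed the size asked (adjusted p = 0.0399).

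The lineage genes of dendritic cells gave a partial match. Of 9 tested pan-dendritic genes, 4 were higher than in the pool and 1 lower (background 8.72% and 13.9%, median log2 fold 1.65), and 2 of 5 were higher than in monocytes (background 14.5%). Against other cells of low C1q the counts were 3 and 3 (over all genes 846 and 1051 of 6664). Flt3, the receptor for the dendritic cell growth factor, stood at 212 and 209 against 12.7 and 13.9 CPM (log2 fold 3.76 ± 0.24, adjusted p = 9.03e-05), and Zbtb46, a transcription factor of conventional dendritic cells, at 104 and 33 against 2.86 and 5.12 CPM (log2 fold 3.76 ± 0.64, adjusted p = 0.00569). Cbfa2t3, a transcriptional corepressor, stood at 420.0 and 418 against 37.5 and 35.8 CPM (log2 fold 3.30 ± 0.18, adjusted p = 5.04e-05). Itgax, which encodes CD11c, had 0 counts in the 70 cells. It stood at 32.1 and 33.3 CPM in the pool (at least 5.70-fold lower, adjusted p = 0.00776). A count of 0 in 70 allows a UMI to be present in at most 4.29% of such cells, and does not limit how many express the gene. In the other dendritic cells it was seen in 5 of 15 cells.

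Of the genes that mark conventional type 1 dendritic cells, 4 of 9 tested were higher and 4 lower (background 8.72% and 13.9%). DESeq2 gave 3 and 1 (over all genes 531 and 606 of 9488). The transcription factors were higher. Batf3 stood at 272 and 205 against 36.2 and 35.5 CPM (log2 fold 2.51 ± 0.22, adjusted p = 0.000348). Id2 stood at 1208 and 1165 against 264 and 251 CPM (log2 fold 1.99 ± 0.14, adjusted p = 0.000145) and Irf8 at 1456 and 1323 against 520.1 and 503 CPM (log2 fold 1.23 ± 0.14, adjusted p = 0.000951). The other dendritic cells held 299 and 179 CPM of Batf3 and 1520.2 and 903 of Irf8, which overlapped the members. Among the other type 1 genes, Naaa, a lysosomal amidase, stood at 12 and 7.33 against 270.1 and 270.2 CPM (log2 fold -5.02 ± 0.33, adjusted p = 0.000101). Wdfy4, needed for cross-presentation, stood at 0 and 7.33 against 27.6 and 26.7 CPM (log2 fold -3.02 ± 0.79, adjusted p = 0.0323, not called by DESeq2). Clec9a, a receptor for dead cells, was found in 9 members, at 20 and 25.6 against 3.50 and 3.13 CPM (log2 fold 2.56 ± 0.57, adjusted p = 0.0181, not called by DESeq2). Of the type 2 genes 1 of 9 was higher, Tnip3, and 3 were lower (background 8.72% and 13.9%). Cd209a, a C-type lectin, had no count against 679 and 602 CPM in the other dendritic cells. Sirpa, an inhibitory receptor, stood at 12 and 7.33 against 339 and 309.7 CPM (log2 fold -5.28 ± 0.32, adjusted p = 7.16e-05), and Itgam, which encodes CD11b, at 12 and 3.66 against 431 and 479 CPM (log2 fold -6.09 ± 0.36, adjusted p = 6.33e-05).

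Receptors of uptake and sensing were lower in 19 of 22 tested genes, with 1 higher (background 13.9% and 8.72%, median log2 fold -6.49, or -3.96 with genes at 0 counts set at their bound), and in 13 of 18 against monocytes (background 16.1%). The count against the mean of the class levels was 8 of 18 (over all genes 607 of 5190). Fcgr1, the high-affinity Fc receptor, stood at 4.0 and 0 against 533 and 528 CPM (log2 fold -8.27 ± 0.44, adjusted p = 4.67e-05). Cd14, the lipopolysaccharide co-receptor, stood at 0 and 7.33 against 388 and 295 CPM (log2 fold -6.65 ± 0.49, adjusted p = 0.000162), and Mertk, which engulfs dead cells, at 0 against 91.5 and 99.8 CPM (at least 16.7-fold lower, adjusted p = 0.00106, not called by DESeq2 or against the class mean). All were at or near 0 in both member libraries. The gene that was higher is Ly75, which encodes the endocytic receptor DEC-205, at 236 and 249 CPM in the members, 6.67 and 3.70 in the pool and 0 and 8.14 in the other dendritic cells (log2 fold 5.34 ± 0.31, adjusted p = 6.03e-05 against the pool).

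Genes of actin and motility were higher in 6 of 29 and lower in 6 against the pool (background 8.72% and 13.9%, median log2 fold -0.02), and 6 were higher and 8 lower than in monocytes (background 14.5% and 16.1%). Myo1g, a myosin of haematopoietic cells, stood at 704 and 531 against 43.2 and 54 CPM (log2 fold 3.44 ± 0.22, adjusted p = 9.64e-05). Itga4, the alpha chain of the integrin VLA-4, stood at 676 and 589.9 against 62.9 and 54.3 CPM (log2 fold 3.22 ± 0.16, adjusted p = 4.3e-05). Marcksl1, an actin regulator, stood at 700.0 and 410.4 against 53.4 and 63.1 CPM (log2 fold 3.001 ± 0.26, adjusted p = 0.00035). By contrast Itgb2, the beta chain of LFA-1 and of CD11b and CD11c dimers, was lower, at 32 and 3.66 against 328 and 364 CPM (log2 fold -4.53 ± 0.45, adjusted p = 0.000582; 9.86 and 0 CPM without the 8 mixed members). The GTPase Rac2 was lower too, at 68 and 55 against 511 and 490.0 CPM (log2 fold -3.24 ± 0.21, adjusted p = 9.4e-05; 19.7 and 26.4 CPM without the 8 mixed members). Integrin chains therefore went both ways, and Itgb2 joined Itgax and Itgam, its partner chains, among genes near 0. Actb, which is beta-actin, stood at 20145 and 19650.3 against 10147 and 10834 CPM and missed the size asked (log2 fold 0.71 ± 0.10, adjusted p = 0.00291).

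Survival genes were higher in 8 of 18 and lower in 2 (background 8.72% and 13.9%, median log2 fold 0.61). Against monocytes 6 of 16 were higher and 1 lower (background 14.5% and 16.1%). DESeq2 called 6 higher and none lower against the pool (over all genes 531 and 606 of 9488). The near-identical Bcl2a1a, Bcl2a1b and Bcl2a1d made up 3 of the first count, and reads may be split among them, so their single values are uncertain: Bcl2a1b stood at 1700.1 and 1902 against 379 and 365 CPM and Bcl2a1d at 756 and 938 against 84.2 and 93.6 CPM. Pmaip1, which encodes the death-promoting Noxa, was higher too, at 72 and 98.9 against 10.8 and 15.9 CPM (log2 fold 2.46 ± 0.31, adjusted p = 0.00171). Bcl2 itself was lower, at 4.0 and 11 against 35.9 and 38.1 CPM (log2 fold -2.48 ± 0.54, adjusted p = 0.0164, not called by DESeq2), from 2 cells. Protective and death-promoting genes were thus both among those higher.

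Interferon response genes were lower in 9 of 21 and higher in 2 (background 13.9% and 8.72%, median log2 fold -1.23), and lower in 10 of 20 against monocytes with none higher (background 16.1% and 14.5%). In the 39 members with a Ptprc UMI, 16 were lower and 1 higher (over all genes 1353 and 789 of 9287). Irf7, which amplifies interferon production, stood at 48 and 51.3 against 228 and 274 CPM (log2 fold -2.55 ± 0.23, adjusted p = 0.000398; 49.3 and 0 CPM without the 8 mixed members), with 50% of its member counts in 1 cell. Ifit3 stood at 4.0 and 33 against 125 and 106 CPM (log2 fold -2.80 ± 0.51, adjusted p = 0.00759; 4.93 and 0 CPM without the 8 mixed members, with 90% of its counts in 1 cell). Irf1, an interferon and NF-kB responsive factor, was higher, at 668 and 549.6 against 253 and 236 CPM (log2 fold 1.10 ± 0.15, adjusted p = 0.00251).

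Outside the lists, the largest positive folds included those of Arc, Insm1, Flrt3 and Mreg. Arc, which encodes a capsid-like protein of synapses, stood at 156 and 95.3 CPM in the members against 0.953 and 0.569 CPM in the pool (log2 fold 7.03 ± 0.43, adjusted p = 7.48e-05). Insm1, a transcription factor of neuroendocrine cells, stood at 68 and 33 CPM against 0 in both libraries (at least 110.4-fold higher, adjusted p = 0.00088, not called by DESeq2). Flrt3, a guidance and adhesion molecule, stood at 120.0 and 147 against 0.318 and 0.853 CPM (log2 fold 7.44 ± 0.45, adjusted p = 7.33e-05). They were counted in 41, 14 and 35 of the 70 cells. Mreg, a regulator of lysosome transport, stood at 144 and 80.6 against 0.635 and 0.284 CPM (log2 fold 7.53 ± 0.49, adjusted p = 9.54e-05). Among the largest negative folds, Fcrls, of the Fc receptor-like family, had no count in the members against 380.3 and 412 CPM (at least 69.2-fold lower, adjusted p = 0.000111, not called by DESeq2 or against the class mean). C4b, a complement component, had none against 517 and 521 CPM (at least 90.5-fold lower, adjusted p = 8.1e-05, not called by DESeq2 or against the class mean), and Cxcl13, a B cell chemokine, none against 971 and 1067 CPM (at least 178-fold lower, adjusted p = 4.6e-05, not called by DESeq2 or against the class mean).

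Against the other dendritic cells, with no test, Gadd45b, a stress and NF-kB response gene, stood at 1572 and 1103 CPM against 0 and 16.3 CPM. In the other direction Tmsb10, a thymosin, stood at 1108 and 1059 against 8931 and 4573 CPM, and Lgals3, a galectin, at 248 and 234 against 1629 and 1269.5 CPM (143 and 153 CPM without the 8 mixed members). Each of the 3 kept its order in both libraries, over 4 and 11 other dendritic cells.

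Within the 70 cells the programme was broad for some genes and patchy for others. Cacnb3 was counted in 67 of 70 cells with a median of 7.50 UMIs and at most 22, and Socs2 in 65 with a median of 5. Ccl22 was counted in 28 of 39 and 21 of 31 cells, with a median of 2 and at most 22 UMIs. Il12b was counted in 14 and 16 cells, with a median of 0 and at most 28. Depth bears on these shares: thinning to 2000 UMIs lowered the share of cells with Flt3 from 71.4% to 33.8%.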

How the data were processed

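The authors deposited UMI counts per gene and barcode for 2 libraries. Per the labels' protocols, Cell Ranger (version 3.1 in the submitters' processing notes) aligned reads to mm10 with STAR and combined runs were normalised to the same depth. The deposited values are whole numbers, and replicate 1 held 63001350 and replicate 2 held 58915133 UMIs.

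Barcodes were filtered and sorted into classes by UMI thresholds, and counts were summed per library and class (Python 3.11.15). The sums were tested with edgeR 4.0.16 in R 4.3.3: quasi-likelihood test, TMM factors, filterByExpr and Benjamini-Hochberg adjustment over all genes tested. The library was a block, because each holds every class; this pairing comes from the shared library. The fit against the pool had 4 sums and 1 residual degree of freedom. The monocyte fit had 12 sums of 6 classes and 5. Spread estimated across genes added a median of 5.89 prior degrees of freedom in the pool fit and 6.91 in the monocyte fit. A test against other dendritic cells had been planned for 20 or more cells per library. They were fewer, so the monocyte comparison was added after the cell numbers were seen. Rule genes got no test. The fitting code was tested on simulated data.

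DESeq2 1.42.0, RLE factors, no count filter, no block, stricter member rules, other backgrounds and thinning of cells to 2000 UMIs were tried. Scrublet (scanpy 1.11.5, expected rate 0.04) called 11 and 3 of the 1740 and 1446 kept cells doublets, and these stayed in except in 1 alternative. Intervals of shares are exact binomial at 95%. Promoters came from RefSeq and gene positions from GENCODE M21, which held 31011 of the 31053 gene IDs.

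The members, classes and lists were chosen with earlier results of these data known. Genes were named by a rule. From each list it takes up to 4 called genes of largest fold in each direction and up to 3 uncalled genes of highest level. Outside the lists it takes the 10 of largest fold in each direction at 50 CPM or more, and the 10 of highest level. Some genes are not reported here. Genes named outside it are marked as chosen after their values were seen.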

Additional observations from a re-analysis of the deposited data

How the results depend on the processing

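Of the 127 named genes called against the pool, DESeq2 lost the call of 25, among them Apol7c, Tnfsf4, Insm1, Cxcr5, Ccrl2, Clec9a, Nfkbia, Il15, Il21r and Top2a, which were higher, and March1, Ccl7, Ccl8, Havcr2, Mertk, Abca1, Ikbke, Wdfy4, Bcl2, Cxcl13, C4b and Fcrls, which were lower. Of 100 called against monocytes it lost 10, among them Ccl22, Cacnb3, Il12b and Apol7c. DESeq2 called 531 genes higher and 606 lower than in the pool, against 827 and 1321 with edgeR. Against the mean of the class levels 607 genes were lower and 770 higher. There 24 named genes lost their call, among them Ccl7, Ccl8, Cxcl9, Cxcl10, Il1b, Ciita, Arg1 and Csf3r. The direction turned for Cd63 (log2 fold 1.70, and 0.72 against other cells of low C1q), H2-Aa (1.45), H2-Eb1 (1.64) and Cd74 (1.60). Without the 8 members with markers of another type, Top2a turned to -0.42 against the pool and Ccl3 to -5.62 against monocytes. The cause was not tested.

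With every cell thinned to 2000 UMIs, 343 genes were higher and 307 lower than in monocytes, over 1624 genes tested in place of 5188, and 111 and 53 passed 4-fold against the other dendritic cells. With a broader gate for those cells, 326 were lower. In 1 library alone, without replicate 1 or 2, 540 to 609 genes were at least 4-fold higher than in other dendritic cells and 78 to 257 lower. The share of Ccr7+ cells was 5.36% with a Ptprc UMI asked of members and 14.8% with the rule applied to thinned cells, where 35 and 27 members and 183 and 173 other cells with a Ptprc UMI were left of 39 and 31 and of 350 and 335. The other settings gave 591 to 975 genes higher and 951 to 1618 lower than in the pool, 614 to 788 and 743 to 1222 than in monocytes, and a share of 8.27 to 10.0%.

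With no replicate block, that is without pairing classes within a library, 975 genes were higher and 1608 lower than in the pool and 788 and 860 than in monocytes. Of the named genes called with the block, all kept their call against the pool and H2-Ab1 lost it against monocytes. Of those not called, Traf3 gained a call against the pool and Itgax and S100a8 against monocytes.

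The comparison rests on 70 cells with 522910 UMIs in 2 libraries, which are not stated to come from separate animals. A gene at 0 in the members was not detectable at this depth, and floors cover counting error only. In 1 library alone, 6 named genes fell under the size of fold asked without replicate 1 (Cd63, Cd74, Ccl3, Nfkbia, Il21r and Jun) and 4 without replicate 2 (Cd63, Il1b, Top2a and Jun), as values with no test.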

Other observations

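Metabolic genes were not described above. Of 17 glycolysis genes tested against all other Ptprc-positive cells, 10 were lower (background 13.9%) and 1 higher, with a median log2 fold of -1.21; against monocytes 8 were lower (background 16.1%) and 1 higher. Hk2 and Hk3, which start the pathway, stood at 8.0 and 40.3 against 156 and 175 CPM (log2 fold -2.97 ± 0.40, adjusted p = 0.0022, not called against the class mean; 4.93 and 15.8 CPM without the 8 mixed members) and 4.0 and 7.33 against 108 and 106 CPM (log2 fold -4.41 ± 0.44, adjusted p = 0.000605). Slc16a3, which exports lactate, stood at 16 and 11 against 105 and 106 CPM (log2 fold -3.18 ± 0.37, adjusted p = 0.00106). The gene that was higher, Pfkfb3, encodes an enzyme that activates the pathway through a regulatory sugar, and stood at 260.0 and 224 against 53.4 and 51.5 CPM (log2 fold 1.99 ± 0.20, adjusted p = 0.000577). Gapdh stood at 1356 and 1682 against 2222 and 2138 CPM and missed the size of fold asked (adjusted p = 0.0098). Of 15 cholesterol and LXR genes, 5 were lower and 2 higher (background 13.9% and 8.72%). Abca1, which exports cholesterol, had no count in the members against 169 and 178 CPM (at least 30.2-fold lower, adjusted p = 0.000394, not called by DESeq2). DESeq2 called 3 lower and none higher (over all genes 606 and 531 of 9488).

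Cell cycle genes rested on few cells. Of 18 tested, 3 were higher than in the pool (background 8.72%) and none lower. Without the 8 members with markers of another type 1 of 16 was higher and 6 were lower (over all genes 925 and 1618 of 9212). Top2a, a topoisomerase of dividing cells, stood at 52 and 136 against 32.7 and 27.6 CPM (log2 fold 1.42 ± 0.41, adjusted p = 0.0437, not called by DESeq2), with 58% of its counts in 1 cell, and its log2 fold was -0.42 without those 8. Tubb5, a tubulin, was counted in 67 members, at 1076 and 1179.8 against 381 and 361 CPM (log2 fold 1.39 ± 0.14, adjusted p = 0.000707). Immediate-early genes that respond to tissue dissociation were lower in 3 of 15, a share near the background of 13.9%, and higher in none. Fos and Jun stood at 132 and 125 against 358 and 363 CPM (log2 fold -1.71 ± 0.18, adjusted p = 0.000805) and 228 and 264 against 434 and 447 CPM (log2 fold -1.06 ± 0.16, adjusted p = 0.00395, not called against the class mean). Fos stood at 19.7 and 31.7 CPM without the 8 mixed members. Set against other cells of low C1q, 10 of the 15 were lower (over all genes 1051 of 6664).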
